A study of Mus musculus with 11 samples.

Results

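The genes described here encode the proteins of the mitochondrial ribosome. They were chosen by symbol, as every gene whose name begins with Mrpl or Mrps followed by a digit and that had an array probe set of its own. This gave 76 genes, 47 named Mrpl and 29 named Mrps, of 18194 genes measured in whole mouse pancreas. The rule uses symbols and no measured value. All 76 lay above the limit set for dim genes, a mean log2 signal of 6.866, so all 76 were among the 15897 genes tested. Each gene was read from its brightest probe set (the set of short array probes for 1 transcript). Mrpl30 and Mrpl53 had only probe sets shared with another gene and are not among the 76.

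Total RNA from the whole pancreas of female Balb/C offspring, 30 days old, was hybridised to 11 Affymetrix arrays in 4 groups. Control sham offspring (n = 3) came from dams fed a 20% protein diet in gestation and received vehicle, a citrate buffer. Control STZ offspring (n = 2, replicates 1 and 3) came from the same diet and received streptozotocin, a toxin taken up by insulin-producing β cells, at 35 mg per kg. Both low protein groups came from dams fed an isocaloric diet with 8% protein in gestation, and their offspring received vehicle (low protein sham, n = 3) or the same dose (low protein STZ, n = 3). In all groups injections were daily on days 1 to 5 of life, and all dams ate the control diet from birth. The labels call the arrays of a group biological replicates but name no dam or litter, so litter and diet cannot be told apart, and p-values treat the offspring as independent.

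Mitochondria translate the few proteins encoded by their own DNA, all of them subunits of the respiratory chain or the ATP synthase, on ribosomes of their own. The ribosomal RNAs come from mitochondrial DNA, whereas every mitochondrial ribosomal protein is encoded in the nucleus, made in the cytosol and imported. Some of these proteins have a counterpart in the bacterial ribosome, and others are found only in mitochondria. The small subunit binds the messenger RNA, and the large subunit joins the amino acids. In the pancreas, β cells couple mitochondrial ATP production to insulin release, and acinar cells spend ATP on making digestive enzymes.

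Of the 76 genes, 49 encode large subunit proteins and 26 small subunit proteins, with Mrps18a and Mrps30 counted as large subunit proteins despite their names. Mrps36 belongs to neither, since its protein is a subunit of the α-ketoglutarate dehydrogenase complex. A bacterial counterpart is known for 45 of the 75 ribosomal members, and 30 are mitochondria-specific.

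The stretches just upstream of the transcription start are shown for 6 members that are described below, chosen after their values were seen, because the promoters of mitochondrial ribosomal protein genes are known to bind shared activators. Each run holds the 100 bases before the RefSeq start (build GRCm38.p6), written 5′ to 3′ on the strand of the gene. Capitals mark a match, on either strand, to CCGGAAG (bound by ETS factors such as GABP), GCGCA, any base and GCGC in a row (NRF1) or AAGATGGC (YY1), all of them known regulators of nuclear genes for mitochondrial proteins. The first 4 genes are 4 of the 5 members whose highest low protein array was below the lowest control array, the other being Mrps28. Mrpl17 came after Mrpl57 and Mrps28 in p for diet, and Mrps24, with no match, had the smallest p of all members for diet after STZ.
Mrpl3 (chr9:105053168-105053267, + strand): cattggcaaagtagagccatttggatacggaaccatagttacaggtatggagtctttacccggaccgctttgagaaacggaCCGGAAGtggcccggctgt
Mrpl9 (chr3:94443236-94443335, + strand): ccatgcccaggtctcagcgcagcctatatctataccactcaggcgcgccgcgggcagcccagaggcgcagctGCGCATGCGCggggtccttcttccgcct
Mrpl57 (chr14:57826139-57826238, + strand): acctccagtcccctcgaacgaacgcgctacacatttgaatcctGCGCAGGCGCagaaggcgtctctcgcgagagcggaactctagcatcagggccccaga
Mrpl58 (chr11:115403652-115403751, + strand): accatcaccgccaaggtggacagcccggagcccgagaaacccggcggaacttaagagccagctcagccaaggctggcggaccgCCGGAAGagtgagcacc
Mrpl17 (chr7:105811088-105811187, - strand): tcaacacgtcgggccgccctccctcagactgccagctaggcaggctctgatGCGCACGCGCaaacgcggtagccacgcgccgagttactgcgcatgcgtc
Mrps24 (chr11:5707702-5707801, - strand): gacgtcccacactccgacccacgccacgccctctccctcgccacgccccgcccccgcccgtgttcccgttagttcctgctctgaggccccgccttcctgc

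RefSeq start windows were found for 67 of the 76 genes, 73 windows in all, and the 250 bases before each start were searched on both strands. At least 1 of the 3 motifs was present in 28 of the 73 windows (38.4%), against 14.5% of 21262 windows of all protein-coding genes. The stretches shown above, although shorter, held a match more often than that, so they do not stand for the members. CCGGAAG was found in 23.3% of the members' windows against 8.98%, the NRF1 letters in 12.3% against 5.18%, and AAGATGGC in 5.48% against 1.5%. Neighbouring windows of 1 gene overlap, and matches of different motifs were counted separately where they overlapped. The G+C content, which raises the chance of such matches, had a median of 58.4% in the members' windows and 55.6% in all. A match shows only that these letters are present. Mrps28 was not in the table of start windows.

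Mean signals of the 76 members over the 11 arrays ranged from 7.10 to 11.39 on the log2 scale, with a median of 9.44. Signals of different probe sets are not levels that can be set against each other, so every comparison below is within a gene. For a background of like brightness, the 8207 tested genes with a mean signal between 8.33 and 10.13 are called genes of equal mean signal. These limits are the 0.1 and 0.9 quantiles of the members' mean signals. Within them the genes were not matched to the members 1 by 1, and the brightest and dimmest members lie outside.

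As a group, the members read lower in offspring of low protein dams than in offspring of control dams. In whole tissue, fewer cells of a type and less RNA per cell cannot be told apart. Each array was summarised by the median, over the 76 genes, of the gene's deviation from its own mean. On control sham arrays this median was 0.134, 0.050 and 0.147, on control STZ arrays 0.142 and 0.015, on low protein sham arrays 0.010, -0.003 and -0.068, and on low protein STZ arrays -0.294, -0.059 and -0.106. All 5 control arrays lay above all 6 low protein arrays, but control STZ 3 and low protein sham 1, the nearest of each, differed by far less than the pooled SD of 0.083 within groups. The group means were 0.111 ± 0.053 (SD, n = 3), 0.079 ± 0.089 (n = 2), -0.020 ± 0.042 (n = 3) and -0.153 ± 0.124 (n = 3) in the same order. For the genes of equal mean signal the array medians stayed between -0.031 and 0.019.

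**Figure D1:**
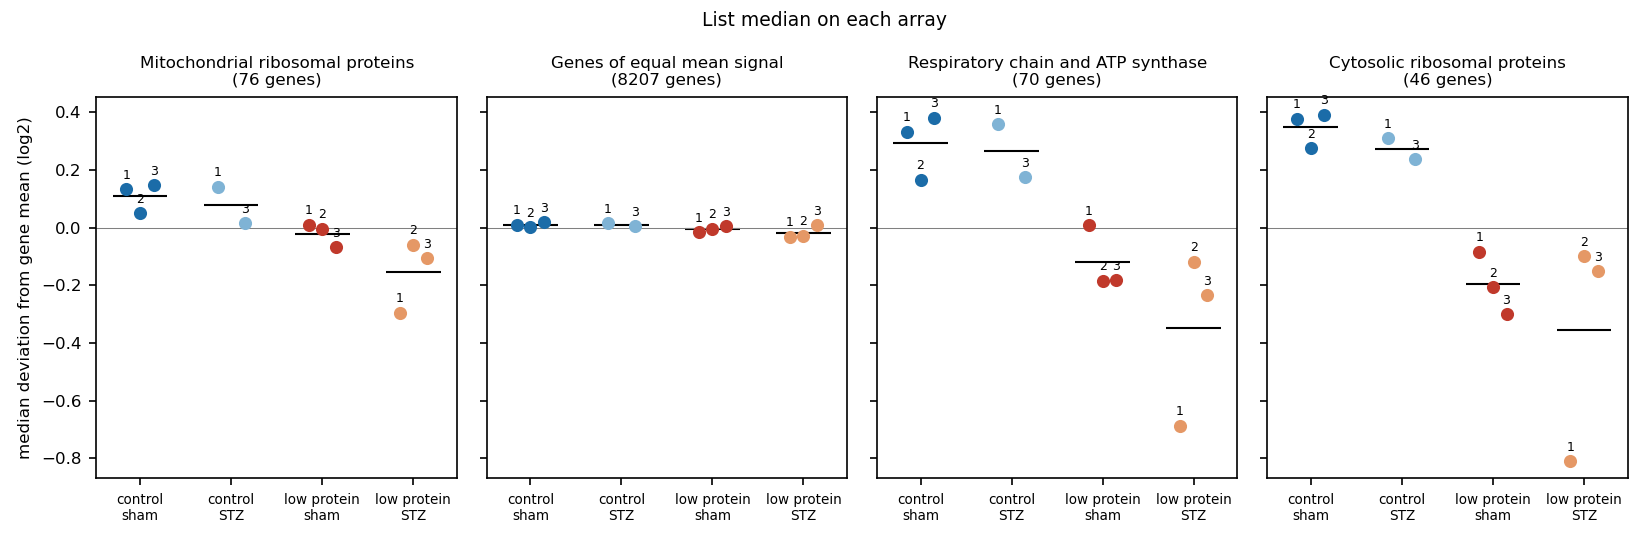
Median log2 deviation of 4 gene lists from the gene means, 1 point per array numbered by replicate, with a bar at the group mean. The mitochondrial ribosomal protein genes lie between 0.015 and 0.147 on control arrays and between -0.294 and 0.010 on low protein arrays, a smaller spread than for respiratory chain or cytosolic ribosomal protein genes, while genes of equal mean signal stay near 0.

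Low protein STZ 1 was the lowest of the 11 arrays for 46 of the 76 members (60.5%), whereas it was the lowest for 20.8% of all genes tested. The low protein STZ group had the lowest of the 4 group means for 64 members, and for 37.7% of all genes. The highest group mean was that of control sham arrays for 41 members (33.7% of all genes) and of control STZ arrays for 31 (30.2% of all genes). The spread of all signals on an array moved with the diet too: the SD over all probe sets was 1.60 to 1.67 on control arrays and 1.52 to 1.62 on low protein arrays, lowest on low protein STZ 1.

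**Figure D2:**
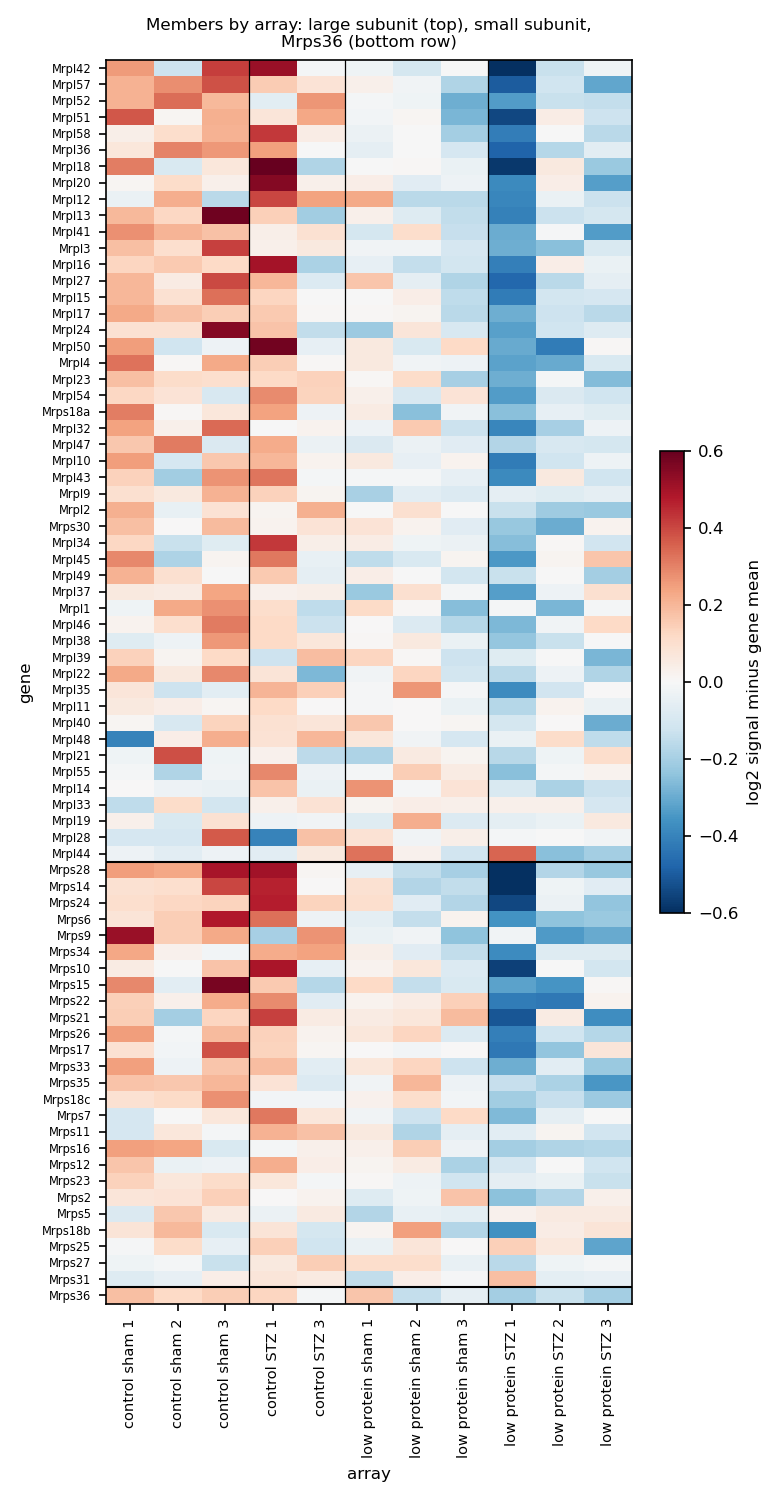
Log2 signal of the 76 genes (rows) on the 11 arrays (columns) minus each gene's mean over all arrays, colour limited to -0.6 and 0.6, with large subunit genes above, small subunit genes below and Mrps36 last, each block ordered by its diet difference. Red prevails on the 5 control arrays and blue on low protein STZ 1, the lowest array for 46 genes.

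The diet comparison, averaged over injections, is the mean of the diet difference in sham offspring and that after STZ. It can differ from 0 when the diets differ under only 1 injection. Low protein arrays read lower than control arrays for 72 of the 76 members, with a median log2 difference of -0.195. The median was -0.032 over all genes tested, 62.2% of which were lower, and -0.036 over the genes of equal mean signal, 64% of which were lower. In limma, 0 of the 76 members and 0 of the 15897 genes (0%) passed an adjusted p of 0.05. At an unadjusted p of 0.05, 39 members were lower and 0 higher, against 11.7% of all genes lower and 3.65% higher. The diets did not overlap, low protein being lower, for 5 members (2.47% of all genes), and with low protein higher for 0 (0.679% of all genes).

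The large subunit members had a median difference of -0.198, with 45 of 49 lower and 25 at an unadjusted p of 0.05. The small subunit members had a median of -0.178, with 26 of 26 lower and 13 at that p. Over all genes, 11.7% were lower at that p. No difference between the subunits was tested. By origin, members with a bacterial counterpart had a median of -0.210 (42 of 45 lower) and mitochondria-specific members a median of -0.172 (29 of 30 lower).

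Mrpl57, a small mitochondria-specific protein of the large subunit, had the smallest p of all members. Its signal was 10.23, 10.30 and 10.40 on control sham arrays, 10.17 and 10.10 on control STZ arrays, 10.05, 10.00 and 9.84 on low protein sham arrays, and 9.52, 9.90 and 9.71 on low protein STZ arrays. The 6 low protein arrays were all below the 5 control arrays, and low protein STZ 1 was the lowest. The difference was -0.39 ± 0.08 (SE), 1.31-fold lower, with a limma adjusted p of 0.0585. A second, much dimmer probe set of Mrpl57 (mean 7.46) differed the other way, by 0.14.

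Mrps28, a small subunit protein with a bacterial counterpart, had the widest range of group means, 0.70. It read 9.33, 9.31 and 9.57 on control sham arrays, 9.58 and 9.09 on control STZ arrays, 9.03, 8.93 and 8.88 on low protein sham arrays, and 8.38, 8.90 and 8.85 on low protein STZ arrays. The diets did not overlap, although control STZ 3 came close to low protein sham 1. The difference was -0.54 ± 0.12, 1.46-fold lower, with a limma adjusted p of 0.0636. Mrps28 had no other probe set.

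Mrpl17, a core protein of the large subunit shared with bacteria, came next by p. Control sham arrays gave 10.24, 10.19 and 10.16, control STZ arrays 10.17 and 10.02, low protein sham arrays 10.02, 10.03 and 9.85, and low protein STZ arrays 9.72, 9.89 and 9.85. Control STZ 3 and the first 2 low protein sham arrays read nearly alike, so the diets touched. The difference was -0.25 ± 0.06, with a limma adjusted p of 0.0822. Both other probe sets of Mrpl17 differed by less and the other way, by 0.02 and 0.12.

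Mrpl3, Mrpl9 and Mrpl58 were the other members without overlap between the diets. Mrpl3 and Mrpl9 are large subunit proteins shared with bacteria, and Mrpl58 is a peptidyl-tRNA hydrolase built into the large subunit that can release stalled chains. Mrpl3 read 9.62, 9.54 and 9.85 on control sham, 9.47 and 9.50 on control STZ, 9.42, 9.42 and 9.34 on low protein sham, and 9.15, 9.19 and 9.35 on low protein STZ arrays. The lowest control array was 9.47 and the highest low protein array 9.42, and the difference was -0.27 ± 0.07 (limma adjusted p = 0.0975). Other probe sets of Mrpl3 differed by -0.20, 0.06 and -0.04. Mrpl9 read 9.75, 9.71 and 9.86 on control sham, 9.79 and 9.67 on control STZ, 9.46, 9.59 and 9.57 on low protein sham, and 9.60, 9.58 and 9.60 on low protein STZ arrays. Its low protein STZ arrays were no lower than its low protein sham arrays, and its diet difference was -0.19 ± 0.05 (limma adjusted p = 0.136), with -0.06 and -0.36 for its other probe sets. Mrpl58 read 9.59, 9.66 and 9.76 on control sham, 9.98 and 9.60 on control STZ, 9.52, 9.55 and 9.35 on low protein sham, and 9.14, 9.55 and 9.39 on low protein STZ arrays. Low protein sham 2 and low protein STZ 2 came close to the lowest control array, and the difference was -0.31 ± 0.09 (limma adjusted p = 0.145). The other probe set of Mrpl58, at a mean signal of 8.42, differed the other way, by 0.10.

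**Figure D3:**
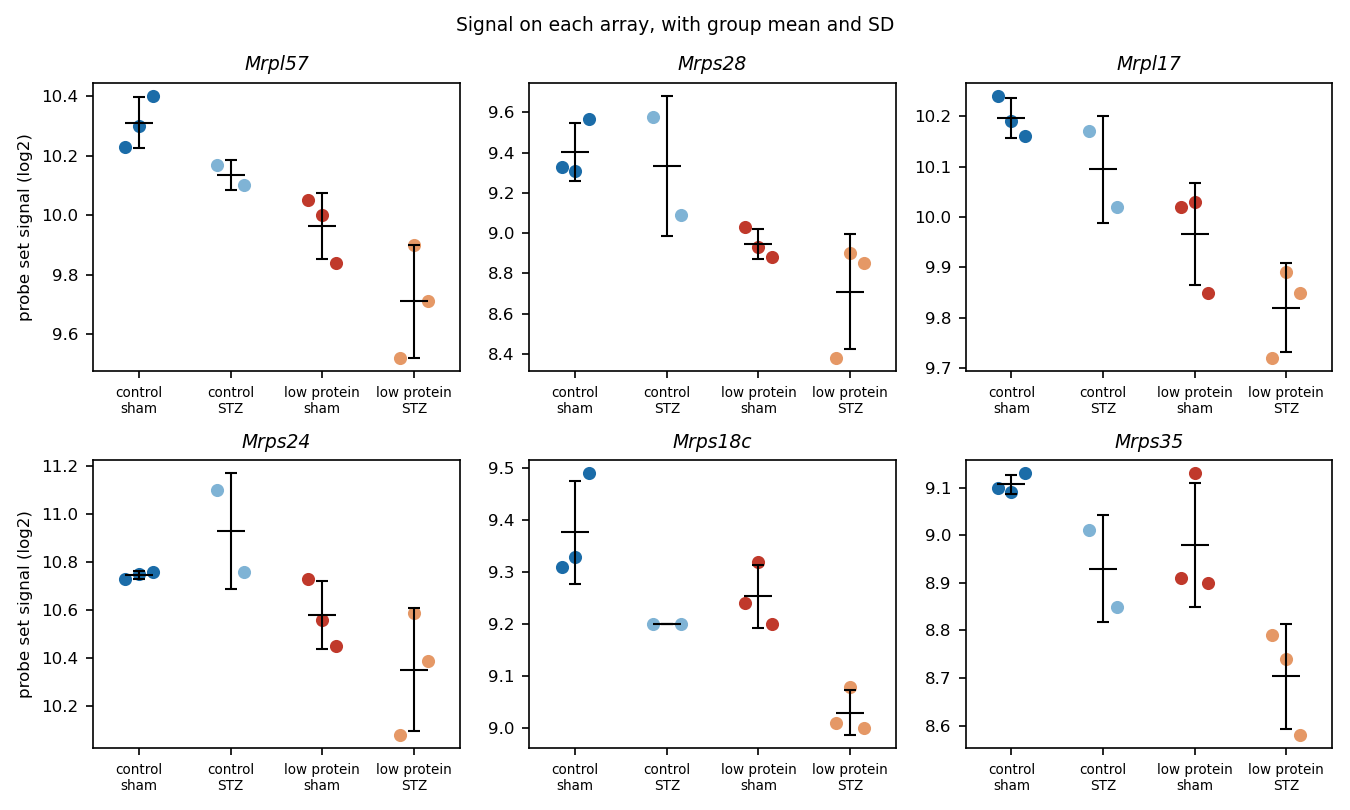
Log2 signal of 6 members on each array (points), with the group mean (bar) and SD (error bar), by diet and injection. Mrpl57 and Mrps28 show no overlap between the diets, Mrps18c and Mrps35 are lowest on low protein STZ arrays, and the vertical axes differ and do not start at 0.

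Only 4 members read higher in the low protein groups, and by no more than 0.04: Mrpl19 (0.01 ± 0.07), Mrpl28 (0.04 ± 0.12), Mrpl33 (0.00 ± 0.06) and Mrpl44 (0.04 ± 0.12), with limma adjusted p from 0.894 to 0.987. All 4 are large subunit proteins, Mrpl44 being one with a ribonuclease III fold. Mrpl28 read 10.73, 10.73 and 11.20 on control sham arrays and 10.43 and 11.01 on control STZ arrays, a wide scatter. Its low protein sham arrays gave 10.92, 10.81 and 10.87 and its low protein STZ arrays 10.82, 10.83 and 10.81, all inside the control range. Other probe sets of these genes pointed the other way: -0.27 and -0.41 for Mrpl28, -0.26 for Mrpl33 and between -0.11 and -0.10 for the 3 others of Mrpl44. The sign of each of these 4 differences turned under several other settings, so no direction is given for them.

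Probe sets bear on the whole family. The members had 80 further probe sets of their own, 71 of them above the limit for dim genes in 41 genes. Of these 71, 46 read lower in the low protein groups, a share near the 62.2% of all genes tested that were lower. Only 38 had the same sign as the probe set used, and their median difference was -0.07, nearer 0 than that of the 76 used. Differences that rounded to 0 counted as neither lower nor of the same sign. The further probe sets are dimmer by the rule of choice. Both they and the probe sets used can match other transcript ends or pseudogenes. Why they differ was not tested. With the mean of all probe sets of a gene in place of the brightest, the diet median was -0.143 and 76 of 76 members were lower.

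The size of the diet difference changed with what was done to the arrays. Without low protein STZ 1 the median was -0.162 (72 lower), and without control STZ 1 it was -0.141, with 20 members lower at an unadjusted p of 0.05 (8.0% of all genes in the same fit). With cyclic loess scaling, which evens out the arrays across the range of signal, it was -0.138 (70 lower). With the SD of all probe set signals on the array as a covariate, it was -0.100, with 63 members lower, 10 of them at an unadjusted p of 0.05 (5.76% of all genes in that fit). Array spread and diet overlap here, so that fit may take out differences of diet as well.

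In sham-injected offspring, the diet comparison leaves the toxin out. Low protein sham arrays read lower than control sham arrays for 64 of 76 members, with a median of -0.124 against -0.024 over all genes. Of all genes, 57.7% were lower. In limma 0 members and 0 genes (0%) passed, while 14 members were lower at an unadjusted p of 0.05 (7.22% of all genes) and 0 higher (3.2% of all genes). The arrays did not overlap for 19 members, all lower (10.2% of all genes were lower and 5.57% higher in this way). Leaving out 1 array gave 6 to 18 members lower at that p, with 6 without low protein sham 3 (5.44% of all genes) and 9 without control sham 3 (5.9% of all genes). With array spread as a covariate the median was -0.044.

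Mrpl57 led here as well, at -0.35 ± 0.10 (limma adjusted p = 0.247), and Mrpl9 followed at -0.23 ± 0.07 (limma adjusted p = 0.261). Mrpl52, a mitochondria-specific large subunit protein, was the third. It read 10.01, 10.14 and 10.00 on control sham arrays and 9.79, 9.78 and 9.51 on low protein sham arrays, with 9.74 and 10.07 on control STZ and 9.47, 9.67 and 9.66 on low protein STZ arrays. The sham groups stood apart, whereas control STZ 1 lay among the low protein arrays. The difference in sham animals was -0.36 ± 0.11 (limma adjusted p = 0.270), and averaged over injections 2 other probe sets of Mrpl52 above the limit differed by -0.40 and -0.51.

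The diets were also compared after STZ. Low protein STZ arrays read lower than control STZ arrays for 72 of 76 members, with a median of -0.239 against -0.041 over all genes. Of all genes, 62.3% were lower. In limma 0 members and 0 genes (0%) passed, with 32 members lower at an unadjusted p of 0.05 (7.79% of all genes) and 0 higher (1.7% of all genes). The arrays did not overlap for 41 members, all lower, against 16.8% of all genes lower and 7.48% higher. With 2 control STZ arrays this comparison rests on few values: without control STZ 1 and low protein STZ 1 its median was -0.121, with 4 members lower at an unadjusted p of 0.05 (3.21% of all genes), and with array spread as a covariate it was -0.153. With 1 array left out, 8 to 34 members were lower at that p, with 8 without control STZ 1 (4.16% of all genes) and 15 without low protein STZ 1 (5.18% of all genes).

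Mrps24, a small subunit protein shared with bacteria that lies at the entry of the messenger RNA, had the smallest p after STZ. It read 10.73, 10.75 and 10.76 on control sham, 11.10 and 10.76 on control STZ, 10.73, 10.56 and 10.45 on low protein sham, and 10.08, 10.59 and 10.39 on low protein STZ arrays. The highest and the lowest value came from control STZ 1 and low protein STZ 1, the pair that was also far apart for many other members. Its difference after STZ was -0.58 ± 0.15 (limma adjusted p = 0.348), and -0.27 ± 0.14 without those 2 arrays. A second probe set of Mrps24 differed by -0.47 averaged over injections, as the one used did by -0.37.

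Mrpl57 was next after STZ, at -0.43 ± 0.11. Mrpl54, a mitochondria-specific large subunit protein, was the third, at -0.39 ± 0.11, both with a limma adjusted p of 0.348. It read 8.94 and 8.79 on control STZ arrays against 8.32, 8.57 and 8.54 on low protein STZ arrays, without overlap. Its sham groups, 8.78, 8.74 and 8.56 for control and 8.69, 8.56 and 8.74 for low protein, overlapped fully. A second probe set of Mrpl54 (mean 8.05) differed by 0.01 averaged over injections, where the one used differed by -0.21.

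**Figure D4:**
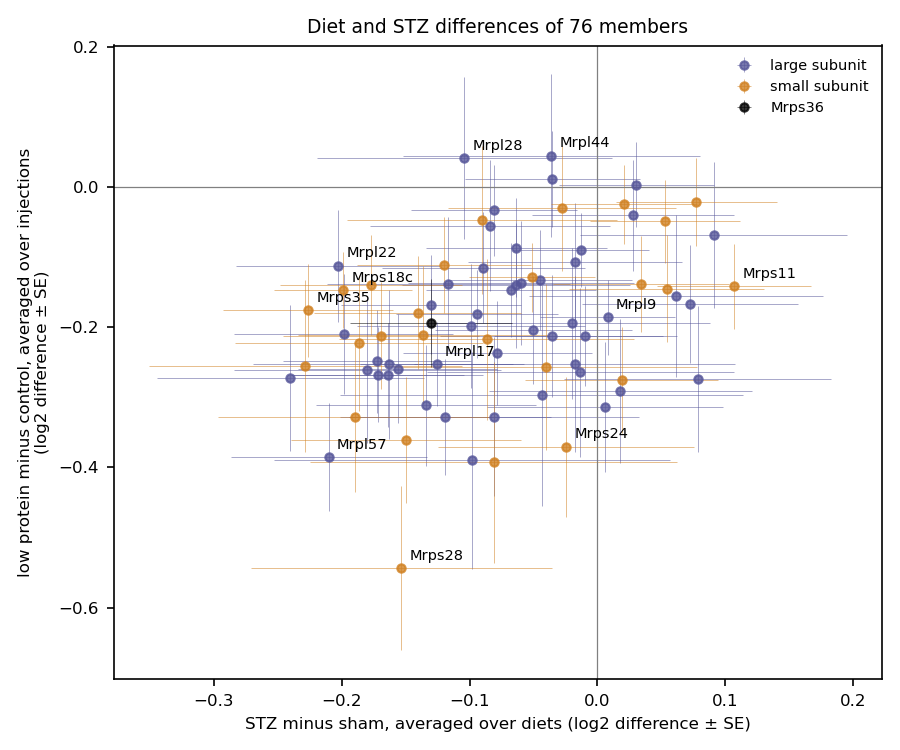
Diet difference averaged over injections (vertical) against STZ difference averaged over diets (horizontal), both log2 with SE, 1 point per member, coloured by subunit. The cloud lies below 0 on the vertical axis for 72 of 76 members and left of 0 on the horizontal axis for 60 of 76, and both axes use the same 11 arrays.

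The STZ comparisons set the injections against each other within a diet. In offspring of control dams, STZ arrays read lower than sham arrays for 43 of 76 members and for 49.3% of all genes. The median was -0.037 against 0.002 over all genes. In limma 0 members and 0 genes (0%) passed, and at an unadjusted p of 0.05, 1 member was lower (2.13% of all genes) and 1 higher (1.92% of all genes). The arrays did not overlap for 8 members that were lower (7.72% of all genes) and 7 that were higher (8.64% of all genes), shares near those of all genes. The sign of the median depended on the array left out: it was -0.091 without control STZ 1 and 0.048 without control STZ 3, where 7 members were higher at that p (2.97% of all genes).

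Mrpl22, a large subunit protein near the exit of the peptide tunnel, read 8.93, 8.76 and 8.99 on control sham and 8.78 and 8.43 on control STZ arrays. The groups overlapped, and the difference was -0.29 ± 0.12, ranging from -0.458 without control STZ 1 to -0.115 without control STZ 3. Mrps11, a small subunit protein shared with bacteria, read 8.84, 9.01 and 8.93 on control sham and 9.15 and 9.12 on control STZ arrays, and was higher by 0.21 ± 0.09. Both genes had a limma adjusted p of 0.999. For STZ averaged over diets, Mrps11 differed by 0.11, and by 0.01 in its second probe set (mean 7.73).

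In offspring of low protein dams, STZ arrays read lower than sham arrays for 69 of 76 members and for 57.6% of all genes. The median was -0.149 against -0.018 over all genes. In limma 0 members and 0 genes (0%) passed, with 11 members lower at an unadjusted p of 0.05 (1.91% of all genes) and 0 higher (0.679% of all genes). The arrays did not overlap for 9 members that were lower (5.14% of all genes) and 1 that was higher (2.6% of all genes). Without low protein STZ 1, 63 members were lower, 5 of them at that p (1.82% of all genes), and the median was -0.073. The count at that p was 5 to 15 with 1 array left out, with 5 also without low protein sham 1 (1.18% of all genes) and 6 without low protein sham 2 (1.87% of all genes).

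Mrps35, a mitochondria-specific small subunit protein, read 8.91, 9.13 and 8.90 on low protein sham and 8.79, 8.74 and 8.58 on low protein STZ arrays. The control sham arrays gave 9.10, 9.09 and 9.13 and the control STZ arrays 9.01 and 8.85, so the toxin groups were the lower ones in both diets. Its difference in low protein offspring was -0.28 ± 0.09 (limma adjusted p = 1), and averaged over diets -0.23 ± 0.07 (limma adjusted p = 0.999). Here low protein STZ 3, not 1, was the lowest array, and without low protein STZ 1 the difference in low protein offspring was -0.32 ± 0.10.

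Mrps18c belongs to a trio of related genes, with Mrps18a and Mrps18b, whose bacterial relative is a single protein. Mammalian ribosomes carry all 3, Mrps18a in the large subunit and the others in the small subunit. Mrps18c read 9.31, 9.33 and 9.49 on control sham, 9.20 and 9.20 on control STZ, 9.24, 9.32 and 9.20 on low protein sham, and 9.01, 9.08 and 9.0 on low protein STZ arrays. STZ arrays lay below sham arrays in each diet, by -0.18 ± 0.08 in control and -0.22 ± 0.07 in low protein offspring, and averaged over diets by -0.20 ± 0.05 (limma adjusted p = 0.999). Mrps18a read 9.80, 9.50 and 9.56 on control sham, 9.73 and 9.46 on control STZ, 9.54, 9.24 and 9.47 on low protein sham, and 9.24, 9.44 and 9.42 on low protein STZ arrays. Mrps18b read 9.25, 9.37 and 9.08 on control sham, 9.25 and 9.07 on control STZ, 9.19, 9.42 and 9.0 on low protein sham, and 8.81, 9.22 and 9.25 on low protein STZ arrays. In these 2 the injections overlapped in both diets. Whether the 3 genes differ from each other was not tested.

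Averaged over diets, STZ arrays read lower for 60 of 76 members, with a median of -0.081 against -0.008 over all genes. In limma 0 members and 0 genes (0%) passed, with 10 members lower at an unadjusted p of 0.05 (2.38% of all genes) and 0 higher (0.856% of all genes). Mrpl57 was among the first 3 by p here too, at -0.21 ± 0.08 (limma adjusted p = 0.999). Leaving out 1 array at a time moved the median between -0.115 and -0.038 and the count at that p between 4 and 15. It was 4 without low protein STZ 1, control sham 3 or low protein sham 2 (1.95%, 1.75% and 1.78% of all genes), and 5 without control STZ 3, control sham 1 or low protein sham 1 (2.3%, 2.56% and 1.92% of all genes).

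The interaction, which is the STZ difference in low protein offspring minus that in control offspring, asks whether the toxin left more or less behind after protein restriction. It was negative for 60 of 76 members, with a median of -0.103 against -0.019 over all genes. In limma 0 members and 0 genes (0%) passed, with 6 members negative at an unadjusted p of 0.05 (2.21% of all genes) and 0 positive (1.35% of all genes). Without control STZ 1 and low protein STZ 1, which leaves control STZ 3 alone in its group, the median was 0.001 and 37 members were negative. Control STZ 1 was the highest array for 22 members (12% of all genes) and low protein STZ 1 the lowest for 46 (20.8% of all genes). This pair was chosen after seeing the data. Leaving it out was bound to shrink the shift, so it does not show where the shift came from. With 1 array left out the negative count at that p was 2 to 13. It was 2 without control STZ 1, low protein STZ 1 or low protein sham 1 (1.48%, 2.15% and 1.64% of all genes), and 13 without control STZ 3 (2.99% of all genes).

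Mrpl35, a large subunit protein shared with bacteria, had the smallest p for the interaction. It read 8.88, 8.68 and 8.74 on control sham, 9.01 and 8.95 on control STZ, 8.80, 9.07 and 8.80 on low protein sham, and 8.43, 8.69 and 8.81 on low protein STZ arrays. Both STZ arrays were above all sham arrays in control offspring, whereas 2 of the 3 STZ arrays were below all sham arrays in low protein offspring. The interaction was -0.46 ± 0.17. Other probe sets of Mrpl35 (means 8.47 and 8.39) differed by -0.17 and -0.10 for STZ averaged over diets, against -0.02 for the one used. For diet averaged over injections they differed by 0.00 and 0.05, against -0.11. Mrpl14, a conserved large subunit protein that lies where the subunits meet, read 9.77, 9.49 and 9.58 on low protein sham and 9.41, 9.31 and 9.37 on low protein STZ arrays, without overlap. On control sham arrays it read 9.50, 9.47 and 9.46, and on control STZ arrays 9.67 and 9.46. The interaction of Mrpl14 was -0.33 ± 0.13 and its STZ difference in low protein offspring was -0.25 ± 0.09. Mrps21, a small subunit protein shared with bacteria, read 10.60, 10.25 and 10.58 on control sham, 10.86 and 10.50 on control STZ, 10.50, 10.52 and 10.64 on low protein sham, and 9.94, 10.50 and 10.08 on low protein STZ arrays. For STZ averaged over diets it differed by -0.09, and a second, dimmer probe set (mean 7.47) by 0.09. The interaction of Mrps21 was -0.58 ± 0.23, and -0.29 ± 0.24 without control STZ 1 and low protein STZ 1. All 3 had a limma adjusted p of 1.

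The 4 simple comparisons share arrays in pairs (control sham arrays, for example, enter both STZ in the control diet and diet in sham animals), so their counts do not add up as independent evidence.

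Several members hardly differed among the groups. The group means of Mrpl19 spanned 0.05, those of Mrps25 0.06 and those of Mrps31 0.10. Mrps31, a mitochondria-specific small subunit protein, read 8.67, 8.70 and 8.79 on control sham, 8.82 and 8.80 on control STZ, 8.60, 8.79 and 8.74 on low protein sham, and 8.93, 8.69 and 8.70 on low protein STZ arrays. Low protein STZ 1, the lowest array for most members, was the highest for Mrps31. Mrps25, another such protein, read 8.64 on both control STZ 1 and low protein STZ 1, its highest values, and 8.18 on low protein STZ 3, its lowest.

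Of the members with the dimmest probe sets, Mrps6 read 7.83 to 8.23 on control sham, 7.72 to 8.08 on control STZ, 7.61 to 7.77 on low protein sham, and 7.39 to 7.53 on low protein STZ arrays. Its low protein arrays lay below the control arrays except for low protein sham 3. Averaged over injections, this probe set of Mrps6 differed by -0.36 between the diets, and a second one the other way, by 0.04. Mrps22 averaged 8.19 ± 0.09, 8.16 ± 0.25, 8.13 ± 0.07 and 7.78 ± 0.26 in the group order above, with low protein STZ 3 (8.08) among the sham values. Mrpl45, which anchors the ribosome to the inner membrane, had the dimmest probe set, with overlapping groups from 6.76 to 7.42. Of the brightest, Mrpl15 averaged 11.59 ± 0.12, 11.46 ± 0.09, 11.35 ± 0.10 and 11.18 ± 0.18, with low protein STZ 1 lowest at 10.97. Its diet difference averaged over injections was -0.26. Other probe sets of Mrpl15 above the limit for dim genes were mixed, at -0.13, 0.12, -0.29, -0.25, 0.16 and 0.04. Mrps36, the member outside the ribosome, read 9.30 to 9.36 on control sham, 9.31 and 9.17 on control STZ, 9.04 to 9.35 on low protein sham and 8.98 to 9.05 on low protein STZ arrays, with a diet difference of -0.19 ± 0.06 (limma adjusted p = 0.180).

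Members also varied together within groups. Each member's deviations from its group means over the 11 arrays were correlated with the mean deviation of the other members, and the median Pearson correlation was 0.56, positive for 65 of 76. Genes of equal mean signal had a median of 0.07 with the same mean, cytosolic ribosomal protein genes 0.71 and respiratory chain genes 0.75. Without control STZ 1 and low protein STZ 1 the median was 0.43 for the members and 0.00 for genes of equal mean signal. Points of 1 array share its RNA, labelling and scaling, and these values are a description without a test. Mrps28 (0.96), Mrps10 (0.95) and Mrpl15 (0.93) followed the others most closely. Mrps9 (-0.53), Mrpl44 (-0.52) and Mrpl33 (-0.51) ran opposite to them. Mrps9, a small subunit protein shared with bacteria, read 7.63 on control STZ 1 and 8.10 on control STZ 3, whereas Mrps10 read 9.0 and 8.46.

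Other genes of mitochondrial translation had diet medians nearer 0 than the ribosomal proteins, and genes of the respiratory chain, which this translation serves, had a median farther from 0. The lists follow from the ribosome outwards, with differences averaged over injections, and no gene of any of them passed in limma. At an unadjusted p of 0.05, 11.7% of all genes were lower and 3.65% higher in this comparison. Of 4 mitochondrial ribosomal proteins with other names, 3 were lower (median -0.086), among them Chchd1, a small subunit protein, by -0.47 ± 0.11 (limma adjusted p = 0.0695). Of 26 genes of ribosome assembly and ribosomal RNA modification, 21 were lower (median -0.092), 7 of them and 1 higher gene at an unadjusted p of 0.05. Malsu1, an assembly factor of the large subunit, differed by -0.38 ± 0.10. Of 12 translation factors 9 were lower (median -0.131, 5 at an unadjusted p of 0.05), among them the release factor Mtrf1l at -0.18 ± 0.05. Of 18 mitochondrial aminoacyl-tRNA synthetases and related genes, which load the transfer RNAs, 10 were lower, with a median of -0.052, near that of all genes. At an unadjusted p of 0.05, 0 of them were lower and 1 was higher, the serine enzyme Sars2, by 0.147 (limma adjusted p = 0.224).

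For mitochondrial transcription and DNA maintenance 8 of 11 genes were lower (median -0.073), with Tfam, which packages mitochondrial DNA, at -0.26 ± 0.12. Of 9 nuclear regulators of mitochondrial biogenesis 6 were lower (median -0.100), with the coactivator Pprc1 at -0.25 ± 0.07. Of 23 protein import genes 21 were lower (median -0.234, 12 at an unadjusted p of 0.05), with the inner membrane translocase subunit Timm17b at -0.43 ± 0.10. The 70 nuclear genes of the respiratory chain and ATP synthase were all lower (median -0.483, 62 at an unadjusted p of 0.05), with the complex III subunit Uqcrh at -0.50 ± 0.08 (limma adjusted p = 0.0574). Cytosolic ribosomal protein genes, whose products translate nuclear messages, were lower for 45 of 46 (median -0.605, 36 at an unadjusted p of 0.05), with Rpl22 at -0.80 ± 0.13 (limma adjusted p = 0.0574). Under cyclic loess scaling these medians came closer together, -0.138 for the mitochondrial ribosomal proteins, -0.156 for the cytosolic ones and -0.255 for the respiratory chain. The differences between lists were not tested.

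For STZ in low protein offspring the median was -0.149 for mitochondrial ribosomal proteins, -0.217 for respiratory chain genes and -0.130 for cytosolic ribosomal proteins. Under cyclic loess scaling they were -0.113, -0.121 and 0.033, and without low protein STZ 1 they were -0.073, -0.064 and 0.079, so the cytosolic median changed sign in both. The differences between these lists were not tested either.

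Markers of several cell types of the gland read differently by diet. Of 10 listed markers of acinar cells, the main cell type, 8 were measured, all above the limit for dim genes, and the log2 of their summed signal was 18.67 to 18.75 on control sham, 18.54 to 18.61 on control STZ, 18.28 to 18.33 on low protein sham, and 17.93 to 18.40 on low protein STZ arrays. Markers of β cells (6 of 8 measured, 5 above the limit) summed to 15.62 to 16.10, 14.0 to 14.06, 13.87 to 15.17 and 13.68 to 14.29 in the same order. Averaged over injections, as for all diet differences of markers here, all 5 markers of other endocrine cells were lower in low protein offspring (median -0.264). All 5 were lower in sham animals (median -0.531), but 3 of 5 after STZ (median -0.081). Their sums were 14.08 to 14.62, 13.39 to 13.60, 12.06 to 13.90 and 13.15 to 13.45. All 6 stromal markers were lower as well (median -0.272), with sums of 13.35 to 14.27, 13.34 to 13.35, 12.84 to 13.42 and 12.86 to 13.45. In sham animals 6 of 6 were lower (median -0.349), and after STZ 4 of 6 (median -0.159).

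The 5 endothelial markers were all lower too on that average (median -0.110). In sham animals 5 of 5 were lower (median -0.266), and after STZ 4 of 5 (median -0.104). The sums were 11.21 to 11.30 on control sham, 11.05 to 11.09 on control STZ and 10.99 to 11.05 on low protein STZ arrays. The low protein sham arrays, from 10.89 upwards, all lay below the control sham and control STZ arrays. Of 4 adipocyte markers 2 were measured and 1 was above the limit, Fabp4, the fatty acid carrier of fat cells, with a diet difference of -0.687 (limma adjusted p = 0.0665). The adipocyte sums were 10.69 to 11.16, 10.52 to 10.99, 9.87 to 10.65 and 10.01 to 10.23. The diet medians were -0.167 for 3 duct markers, -0.027 for 4 lymphocyte markers and -0.010 for 4 macrophage markers, and the sums of these 3 lists overlapped between the diets. All 8 measured acinar markers and 5 of the 6 measured β-cell markers lay above the limit for dim genes. The part of any of these cell types in the differences above was not tested. Correlations between arrays were 0.983 to 0.995 within groups and 0.978 to 0.994 between groups, and the difference between 3′ and 5′ control probes, a sign of RNA integrity, was 1.08 to 1.93, lowest on control STZ 1. With it as a covariate the diet median was -0.200.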

How the data were processed

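The values are the deposited log2 signals per probe set of the series' value table. Per the submitters' processing notes, RMA and Partek 6.5 are named, with no role or order given. A genome build is not given in the sources used here. Array medians lay between 7.92 and 7.97, and no further scaling was applied. Replicate 2 of control STZ was not analysed here.

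Gene names of probe sets came from GEO's platform annotation. Of 45101 probe sets, 34958 carried 1 gene symbol, 932 several and 9211 none, and only the first kind was used. Where a gene had several, the one with the highest mean over all arrays stood for it. Genes at or under the 0.25 quantile of probe set means (6.866) were not tested.

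One model of 4 group means was fitted over all 11 arrays and 15897 genes (limma 3.58.1, R 4.3.3, functions lmFit and eBayes, two-sided), with Benjamini-Hochberg adjustment over all genes tested and a threshold of 0.05. Error values are SE of the fit or SD over arrays. The fit was tested on simulated data. Tables were made with Python 3.11.15.

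Members and gene lists were chosen with earlier results of these data known. Named were the 3 members with the smallest p in each comparison, those with extreme mean signal, range of group means or correlation, the Mrps18 trio, and up to 2 members of each other list. Members named as higher or without overlap, and Mrps36, were chosen after their values were seen. So were the 6 promoters shown. Alternatives were cyclic loess, array weights, trend and robust moderation, the mean of all probe sets, no filter on dim genes, the replicate block and an RNA integrity covariate. Pairs of arrays, and each array in turn, were also left out. Array spread as a covariate and the pair of control STZ 1 and low protein STZ 1 were added after seeing the data. No set test was run. The number of arrays limits the precision, and replicate numbers were not taken as pairs of arrays across groups.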

Additional observations from a re-analysis of the deposited data

How the results depend on the processing

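The results were computed under 21 other settings, 11 of which left out 1 array. Of 147 medians of the members so obtained, 145 kept the sign of the reported value and 142 lay within 1 pooled SD of it. Among 651 values of single genes, 616 kept their direction and side of the threshold, 9 passed only under another setting and 26 changed sign, all of these in the 4 genes read as higher in low protein offspring. Many of these medians and differences could not move. A simple comparison keeps its value when an array of another group is left out, and moderation and the dim-gene filter change no difference. The pooled SD of 0.083 is larger in size than the STZ medians of -0.037 in control offspring and -0.081 averaged over diets. Those medians could vanish and still lie within it. The diet median averaged over injections was -0.100 with array spread as a covariate, a setting chosen after seeing the data, and 39 members at an unadjusted p of 0.05 (11.7% of all genes lower) became 10 there (5.76%) and 16 without control STZ 1 and low protein STZ 1 (6.65%). After STZ the diet median was -0.153 with that covariate and -0.121 without those 2 arrays, and the interaction median was 0.001 without them. With 1 array left out, the STZ median in control offspring ranged from -0.091 to 0.048. For diet averaged over injections, 796 of 15897 genes and 10 of 76 members passed with estimated array weights. Without control sham 1 and low protein STZ 1, 86 genes passed, and with 1 array left out 0 to 460 genes and 0 to 3 members passed. The 3 members, Mrpl3, Mrpl57 and Mrps28, passed without low protein STZ 3, where 460 of 15897 genes passed. Mrpl57 alone passed without low protein STZ 2, where 89 of 15897 genes passed. For diet in sham animals, 7 genes passed with array weights, 56 without control sham 1 and low protein STZ 1, 96 without control STZ 1 and low protein STZ 1, and 0 to 126 with 1 array left out. With 1 array left out, 0 to 1 genes passed for diet after STZ, and likewise for STZ in control offspring. The cause of these changes was not tested.

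For Mrpl33 the diet difference turned to -0.110 with array spread, -0.127 with the mean of all probe sets, -0.015 with the replicate block, -0.033 without control sham 1 and low protein STZ 1 and -0.023 without control STZ 1 and low protein STZ 1. For Mrpl44 it turned to -0.141 with array spread, -0.047 with array weights, -0.066 with the mean of probe sets, and -0.050 and -0.080 without those pairs of arrays. For Mrpl19 it was -0.010 with array weights and -0.011 with the mean of probe sets, and for Mrpl28 -0.020, -0.212 and, without control STZ 1 and low protein STZ 1, -0.105. With 1 array left out, the difference ranged from -0.0385 to 0.0363 for Mrpl19, from -0.105 to 0.187 for Mrpl28, from -0.023 to 0.0439 for Mrpl33 and from -0.0514 to 0.0989 for Mrpl44. A fit with the replicate number as a block gave a diet median of -0.188 and changed no call. There 31 members were lower at an unadjusted p of 0.05 (10.3% of all genes), and 0 genes passed. The deviations of 15 same-numbered array pairs correlated between -0.32 and 0.26, 5 of them above 0.1. Pairs of unlike number ranged from -0.455 to 0.387. The deviations of the 2 control STZ arrays mirror each other, so these correlations cannot decide on pairing. The numbers were not taken as pairs.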

Other observations

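The probe sets shared by 2 genes were left out of all comparisons, and their values cannot be assigned to either gene. The brighter of the pair shared by Mrpl30 and the predicted gene Gm6238 read 11.63, 11.56 and 11.96 on control sham arrays, 11.93 and 11.66 on control STZ arrays, 11.39, 11.25 and 11.28 on low protein sham arrays, and 10.92, 11.42 and 11.37 on low protein STZ arrays. The diets did not overlap there, low protein being lower. The dimmer one read between 6.82 and 7.17 with overlapping groups. The probe set shared by Mrpl53 and Ccdc142 read 10.72, 10.68 and 11.07 on control sham, 11.29 and 10.56 on control STZ, 10.62, 10.62 and 10.57 on low protein sham, and 10.10, 10.59 and 10.62 on low protein STZ arrays, with control STZ 1 highest and low protein STZ 1 lowest. The one shared by Nme3 and Mrps34, a member with a probe set of its own, read 9.79, 9.53 and 9.79 on control sham, 10.02 and 9.77 on control STZ, 9.77, 9.86 and 9.79 on low protein sham, and 9.70, 9.79 and 9.57 on low protein STZ arrays, with overlapping diets. These were chosen after their values were seen, and no test was run on them.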
